A study of Mus musculus with 8 samples.

Results

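The subunits of the oxidative phosphorylation system that are encoded in the nucleus were followed through a transcriptome study of mouse bone marrow-derived macrophages (BMDMs). Members were chosen by gene symbol, as genes whose name starts with Ndufa, Ndufb, Ndufc, Ndufs, Ndufv, Uqcr, Cox4 to Cox8 or Atp5 or is Sdha, Sdhb, Sdhc or Sdhd, and were selected on their mean count, which had to reach 50 over the 8 libraries. Of 50615 genes in the deposited table, 98 carried such a name and 86 reached the mean count. The least abundant gene inside the limit was Ndufaf6 with a mean of 70.5 counts, and the most abundant one outside it was Cox7a1 with 39.9 counts. The rule therefore used the level of a member and not its response to stimulation or to loss of Ncoa6. It was set, however, with earlier results of these data known.

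The study compared BMDMs of C57BL/6 mice that lack the nuclear receptor coactivator Ncoa6 in myeloid cells (Ncoa6-KO, Ncoa6 fl/fl with LysM-Cre) with BMDMs of floxed mice that have no Cre (Ncoa6-sufficient, Ncoa6 fl/fl). Bone marrow cells were grown in M-CSF at 20 ng per ml for 6 days. They then received either medium alone or LPS at 100 ng per ml for 4 hours and monosodium urate crystals (MSU) at 200 μg per ml for 2 hours. Each of the 4 combinations of genotype and culture was sequenced as 2 libraries of polyadenylated RNA. The control mice carry no Cre allele, so that loss of Ncoa6 and presence of LysM-Cre cannot be told apart, and medium alone is the only control for the combined LPS and MSU treatment. By the study's methods the BMDMs of a genotype came from different mice. Whether a medium and an LPS+MSU library came from the same mouse is not stated.

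Oxidative phosphorylation takes place in the inner mitochondrial membrane. Complexes I (NADH dehydrogenase) and II (succinate dehydrogenase) pass electrons to ubiquinone, complex III passes them on to cytochrome c, and complex IV (cytochrome c oxidase) gives them to oxygen, while complex V (ATP synthase) uses the resulting proton gradient to make ATP. In macrophages activated with LPS the balance is known to shift from respiration towards glycolysis, and complexes I and II are known sources of mitochondrial reactive oxygen species and of signals that bear on inflammasome activation.

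The 86 genes fell into 37 for complex I, which comprise 7 core subunits, 29 accessory subunits and Ndufb4c, 4 for complex II, 8 for complex III, 11 for complex IV and 16 for complex V. The remainder were 8 complex I assembly factors named Ndufaf1 to Ndufaf8, Atp5s, a coupling factor linked to ATP synthase that is also known as Dmac2l, and Cox7a2l, a protein that helps complexes III and IV associate into supercomplexes. Ndufa4 was grouped with complex IV, where the protein resides. The genes lay on 19 chromosomes with at most 7 on any of them, and 3 lay on the X chromosome. They were short, with a median merged exon length of 1737 bases against 3620 bases over all genes tested.

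A pair of gene groups in the module shares sequence, which limits how their reads can be assigned. Ndufb4c (chr15:73809507-73809896, GRCm38) is annotated as a processed pseudogene, and its 390 bases were identical to the Ndufb4 transcript at all 390 positions, so that none of its 291 windows of the read length, 100 bases, told the copies apart. Ndufb4 and Ndufb4c together measured 802 and 719 normalized counts with medium and 756 and 782 with LPS+MSU in Ncoa6-sufficient cells. The sum was 752 and 904 with medium and 942 and 886 with LPS+MSU in Ncoa6-KO cells, and the split of these counts between both genes is uncertain. The c subunit, the rotating ring protein of ATP synthase, is encoded by Atp5g1, Atp5g2 and Atp5g3, which yield the same mature protein. The ends of their coding sequences, through the stop codon, are shown because they carry the synonymous changes by which reads of these paralogs differ (GRCm38, GENCODE vM21; capitals mark the 17 of 60 positions at which the 3 genes are not all alike).
Atp5g1 (chr11:96073104-96073163, - strand): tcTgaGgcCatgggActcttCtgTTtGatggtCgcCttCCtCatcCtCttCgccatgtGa
Atp5g2 (chr15:102663014-102663073, - strand): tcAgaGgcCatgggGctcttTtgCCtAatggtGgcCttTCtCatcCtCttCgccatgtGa
Atp5g3 (chr2:73908593-73908652, - strand): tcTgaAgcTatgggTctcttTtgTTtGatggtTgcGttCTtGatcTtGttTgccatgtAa
Over the last 228 coding bases Atp5g1 and Atp5g2 differed at 34 positions (85.1% identity), Atp5g1 and Atp5g3 at 46 (79.8%) and Atp5g2 and Atp5g3 at 49 (78.5%).

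The libraries held between 25281955 and 33673552 counts, and 17625 genes with a sum of at least 10 counts were tested, all 86 members among them. Ncoa6 itself measured 1515 and 1405 normalized counts in Ncoa6-sufficient medium libraries and 784 and 622 in Ncoa6-KO medium libraries. The log2 fold change was -1.05 ± 0.12 (SE, edgeR quasi-likelihood adjusted p = 0.00236). With LPS+MSU Ncoa6 measured 1297 and 1173 in Ncoa6-sufficient and 563 and 526 in Ncoa6-KO libraries (-1.18 ± 0.12, adjusted p = 0.00189). Reads of the gene thus remained in the knockout. The study's loxP site flanks exon 7 of Ncoa6, and counts over the whole gene include other exons. They do not measure intact transcript. All 10 macrophage markers were expressed, and their summed level ran from 284542 to 584313 normalized counts. That sum was lower in Ncoa6-KO libraries (284542 to 326606 against 424039 to 492169 with medium). The largest part of the gap lay in Lyz2, whose locus carries LysM-Cre and which measured 272098 and 209893 normalized counts in Ncoa6-sufficient and 127555 and 111994 in Ncoa6-KO cells with medium. Summed markers of osteoclasts, dendritic cells, neutrophils and lymphocytes (B, T and NK) reached at most 2336 normalized counts in any library, and Cd3g, Cd8a, Ncr1 and Trac were at 0 in all of them. With medium the osteoclast sum was 889 to 1023 in Ncoa6-sufficient and 772 to 795 in Ncoa6-KO libraries and the dendritic cell sum 774 to 784 and 468 to 594, and the part of these cells in the genotype effects was not tested. The 7 tested of 8 stromal and endothelial markers, mostly Kdr, summed with medium to 950 to 1092 in Ncoa6-sufficient and 516 to 816 in Ncoa6-KO libraries. With LPS+MSU their sum was 7440 to 7767 in Ncoa6-sufficient and 3857 to 5759 in Ncoa6-KO libraries. In Ncoa6-sufficient cells the osteoclast sum was 2074 to 2336 with LPS+MSU, the neutrophil sum 465 to 513 with medium and 755 to 991 with LPS+MSU, and the dendritic cell sum 1195 to 1237 with LPS+MSU. In Ncoa6-KO cells with LPS+MSU the osteoclast, neutrophil and dendritic cell sums were 2055 to 2304, 803 to 864 and 650 to 866. The part of such cells in the stimulation effects and in the genotype effects with LPS+MSU was not tested. In bulk libraries, fewer cells of a type and less RNA per cell cannot be told apart.

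The abundance of the members spanned a wide range. Per kilobase of merged exons, the α and β subunits of the F1 part of ATP synthase, Atp5a1 (4674 to 6312 normalized counts per kb over the 8 libraries) and Atp5b (3711 to 5284), stood beside the complex IV subunits Cox6a1 (4402 to 5891), Cox4i1 (4259 to 5747), Cox8a (3881 to 5576) and Cox6b1 (3599 to 4524). Neighbours in this order overlapped, whereas the range of Atp5a1 lay wholly above that of Cox6b1. The 6 genes at the lower end were Ndufaf5, Ndufaf7, Ndufaf4, Ndufaf6, Ndufaf2 and Atp5s, with ranges within 20.9 to 117 normalized counts per kb.

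Among paralogs known for different tissues, the ubiquitous forms had the higher levels in every library. Cox4i1 exceeded Cox4i2, the lung and hypoxia form, which had at most 6 counts in a library, and Cox6a1 exceeded Cox6a2, the heart and muscle form, with at most 14 counts. Cox6b2, the testis form, had at most 7 counts, Ndufa4l2 at most 1 and Cox8b was listed at 0 in every library. Cox7a1, the muscle form of Cox7a2, was the exception in having a measurable level, at 56.1 to 88.6 normalized counts per kb against 1449 to 1974 for Cox7a2. Among the c subunit genes Atp5g2 (1291 to 1471 normalized counts per kb) and Atp5g3 (1095 to 1431) overlapped, and Atp5g1 (248 to 319) lay below both. The merged exons of Atp5g1 span 4912 bases against 596 for its principal transcript. On the length of the principal transcripts Atp5g1 reached 2045 to 2629 per kb, still below Atp5g2 (4904 to 5589) and Atp5g3 (3344 to 4370).

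With LPS+MSU most structural subunits had small log2 fold changes, from -0.44 to 0.65 with TMM, and the lowest values of the module were those of the assembly factors Ndufaf7 and Ndufaf4 and of Atp5s. The sign of small changes rested on how the libraries were scaled. The median log2 fold change of all genes tested was -0.12 in Ncoa6-sufficient and -0.07 in Ncoa6-KO cells with TMM factors, -0.00 and -0.02 with DESeq2's size factors, and -0.78 and -0.71 with library totals alone. The median of the 86 members was 0.07 and 0.17 with TMM, 0.18 and 0.23 with DESeq2's size factors and -0.60 and -0.46 with library totals. Set against the median of all genes, these came to 0.19 above it in Ncoa6-sufficient and 0.25 above it in Ncoa6-KO cells with TMM, 0.19 and 0.25 with DESeq2's size factors, and 0.18 and 0.24 with library totals. With TMM this distance rested on single libraries in Ncoa6-sufficient cells, where it was 0.11 without medium replicate 2, 0.13 without LPS+MSU replicate 1 and 0.25 and 0.26 without the other library of each group. In Ncoa6-KO cells it was 0.17 without medium replicate 1 and between 0.25 and 0.26 without any other library of that genotype. Under all 3 scalings 70 of the 86 members in Ncoa6-sufficient and 76 in Ncoa6-KO cells lay above the all-gene median. A change of scaling shifts all genes by nearly the same amount. Agreement between scalings in these distances and counts was therefore fixed in advance and is no separate support. For 83 cytosolic ribosomal protein genes the median lay 0.21 and 0.28 above that of all genes with TMM.

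**Figure D1:**
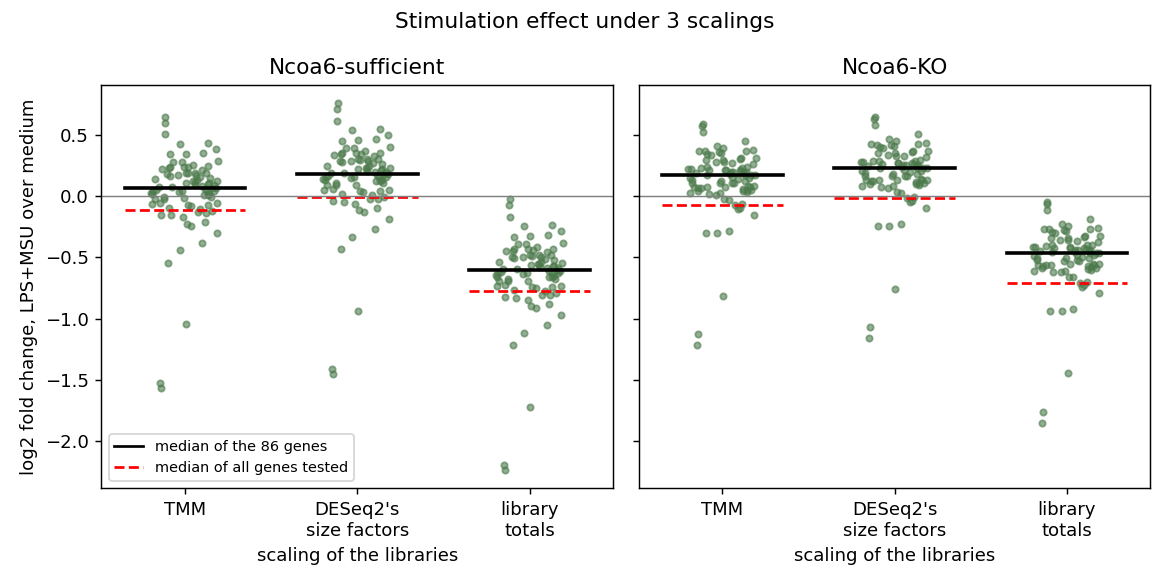
Log2 fold change of each of the 86 genes with LPS+MSU over medium (points, vertical axis) under 3 scalings of the libraries (horizontal axis), in Ncoa6-sufficient (left) and Ncoa6-KO (right) cells. The black line is the median of the 86 genes and the dashed red line that of all genes tested. The black line lies 0.18 to 0.25 above the red one, and both fall below 0 with library totals. Scaling shifts all genes nearly alike, so that it can hardly change the distance between the lines.

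With TMM, 13 members rose and 6 fell at an adjusted p below 0.05 (edgeR quasi-likelihood test, Benjamini-Hochberg) in Ncoa6-sufficient cells, where 24.7% of all genes tested rose and 30.5% fell. In Ncoa6-KO cells 22 rose and 4 fell, against 25.2% and 27.9% of all genes. With DESeq2's size factors 31 rose and 4 fell (28.2% and 26.8% of all genes) and 33 rose and 4 fell (27.1% and 25.9%). With library totals none rose and 82 fell (14.2% and 54.8% of all genes) and none rose and 80 fell (14.4% and 52.8%), and no member had a value above 0. The number of upward calls thus depended on the scaling. It also rested on single libraries, since with TMM 6 members rose without Ncoa6-sufficient medium replicate 2 and 8 without Ncoa6-sufficient LPS+MSU replicate 1, and in Ncoa6-KO cells 12 rose without medium replicate 1 and 10 without LPS+MSU replicate 1. The 4 genes called lower under all 3 scalings were the same in both genotypes, namely Atp5s, Ndufaf7, Ndufaf4 and Ndufv3. Of all genes 26.8% were called lower under all 3 in Ncoa6-sufficient and 25.9% in Ncoa6-KO cells, and 14.2% and 14.4% were called higher, as no member was.

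**Figure D2:**
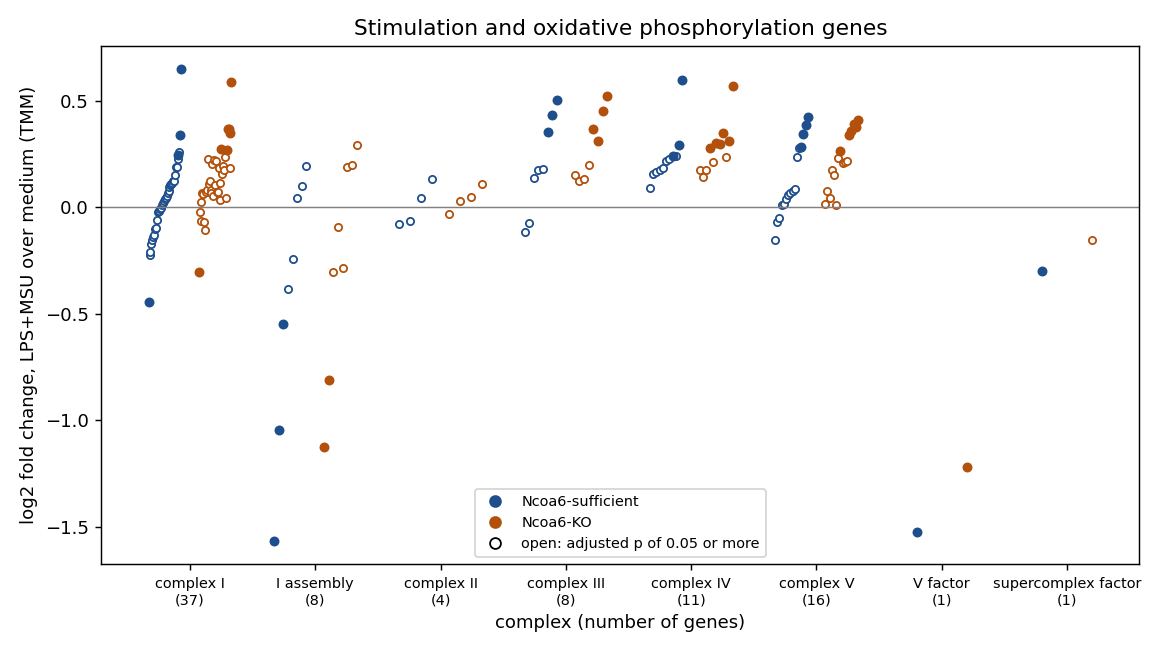
Log2 fold change with LPS+MSU over medium (TMM scale, vertical axis) of the 86 genes by complex (horizontal axis, number of genes in brackets), Ncoa6-sufficient in blue and Ncoa6-KO in orange. Filled points passed an adjusted p of 0.05; the structural subunits lie between -0.44 and 0.65, and Ndufaf7, Atp5s and Ndufaf4 lie below them, whereas with library totals every value is below 0.

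The subunits of complex I, which oxidizes NADH, showed the smallest shift after those of complex II. Their median with TMM was 0.04 in Ncoa6-sufficient and 0.11 in Ncoa6-KO cells, or 0.16 and 0.18 above the all-gene median. Of the 37, 3 rose and 1 fell in Ncoa6-sufficient cells, against 24.7% and 30.5% of all genes. In Ncoa6-KO cells 6 rose and 1 fell, against 25.2% and 27.9%. The largest rise was that of Ndufs4 (chr13:114287795-114388258), an accessory subunit next to the NADH-oxidizing module whose loss impairs complex I. It measured 675 and 671 normalized counts with medium and 1114 and 993 with LPS+MSU in Ncoa6-sufficient cells, and 644 and 687 and then 1042 and 954 in Ncoa6-KO cells. The groups did not overlap, with log2 fold changes of 0.65 ± 0.10 (adjusted p = 0.00018) and 0.59 ± 0.10 (adjusted p = 0.000405) on the TMM scale, whereas library totals gave -0.03 and -0.05. The core subunit Ndufs3, which lies in the arm that leads electrons to ubiquinone, rose by 0.34 in Ncoa6-sufficient cells and by 0.35 in Ncoa6-KO cells on the same scale. The accessory subunits Ndufa1, Ndufa11 and Ndufs5 passed in Ncoa6-KO cells, at 0.37, 0.28 and 0.27, with 0.22, 0.11 and 0.19 in Ncoa6-sufficient cells.

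Other core subunits of complex I, Ndufs1 and Ndufv1 among them, did not pass the test in either genotype. Ndufs1, the largest subunit of the iron-sulfur chain, had values of -0.10 ± 0.09 and -0.11 ± 0.09, and Ndufv1, which binds NADH, had -0.02 ± 0.09 and 0.12 ± 0.09. Ndufa9 and Ndufb8, accessory subunits often used to follow complex I assembly, had 0.12 and -0.17 in Ncoa6-sufficient cells, with 95% confidence intervals of -0.07 to 0.30 and -0.39 to 0.04. Ndufv3 (chr17:31520115-31531331), a small accessory subunit at the NADH end, was the only structural subunit called lower. It measured 1213 and 1159.6 normalized counts with medium and 870.0 and 876 with LPS+MSU in Ncoa6-sufficient cells, a log2 fold change of -0.44 ± 0.09 (adjusted p = 0.00117). In Ncoa6-KO cells 1218 and 1281 became 1040.3 and 984, a change of -0.30 ± 0.09 (adjusted p = 0.0118). The groups did not overlap in either genotype, and library totals gave -1.11 and -0.94.

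The factors that assemble complex I and share the Ndufa prefix had a median of -0.31 in Ncoa6-sufficient and -0.19 in Ncoa6-KO cells with TMM. Of these 8, 3 and 2 fell, against 30.5% and 27.9% of all genes. Ndufaf7 (chr17:78937136-78948052), an arginine methyltransferase that acts during assembly, measured 283 and 327 normalized counts with medium and 81.7 and 124 with LPS+MSU in Ncoa6-sufficient cells, and 343 and 409 and then 175 and 169 in Ncoa6-KO cells. Its log2 fold changes were -1.57 ± 0.19 (adjusted p = 3.12e-05) and -1.12 ± 0.18 (adjusted p = 0.000256). Ndufaf4 (chr4:24898083-24905001) fell from 257 and 311 to 130.2 and 145 in Ncoa6-sufficient and from 254 and 330.2 to 139.8 and 193 in Ncoa6-KO cells, with log2 fold changes of -1.05 ± 0.20 (adjusted p = 0.000831) and -0.81 ± 0.19 (adjusted p = 0.0041). In both genes every stimulated library lay below every medium library of its genotype. Ndufaf2 passed the test in Ncoa6-sufficient cells (-0.55 ± 0.19, adjusted p = 0.0278) and not in Ncoa6-KO cells (-0.30 ± 0.18, adjusted p = 0.186), and the remaining 5 factors passed in neither, with values between -0.38 and 0.29. The call of Ndufaf2 ended with DESeq2's size factors (-0.43, adjusted p = 0.0703).

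Atp5s, the coupling factor that the naming rule places with complex V, fell as far as Ndufaf7 did. It is located at chr12:69724950-69744660 and measured 113 and 142 normalized counts with medium and 45.7 and 42.7 with LPS+MSU in Ncoa6-sufficient cells, and 187 and 188 and then 75.8 and 85.3 in Ncoa6-KO cells. The log2 fold changes were -1.52 ± 0.20 (adjusted p = 6.31e-05) and -1.22 ± 0.18 (adjusted p = 0.00017), and the groups did not overlap. Cox7a2l, the supercomplex factor, had -0.30 ± 0.11 (adjusted p = 0.0368) in Ncoa6-sufficient cells, a call that ended with DESeq2's size factors (-0.19, adjusted p = 0.174), and -0.15 ± 0.11 (adjusted p = 0.265) in Ncoa6-KO cells.

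Complex II, which is also an enzyme of the TCA cycle, had none of its 4 members past the test in either genotype with TMM. Of all genes 24.7% rose and 30.5% fell in Ncoa6-sufficient cells, and 25.2% and 27.9% in Ncoa6-KO cells. Sdha, the flavoprotein of complex II, measured 6617 and 6153 normalized counts with medium and 6241 and 5839 with LPS+MSU in Ncoa6-sufficient cells. That was a value of -0.08 ± 0.10 with a 95% confidence interval of -0.30 to 0.14. The iron-sulfur subunit Sdhb had -0.06 ± 0.09, and the membrane anchors Sdhc and Sdhd had 0.13 ± 0.11 and 0.04 ± 0.09. In Ncoa6-KO cells the 4 values ran from -0.03 to 0.11.

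In complex III, 3 of 8 members rose in Ncoa6-sufficient and 4 in Ncoa6-KO cells with TMM, against 24.7% and 25.2% of all genes. Uqcrfs1, the Rieske iron-sulfur protein, measured 1498 and 1440.0 normalized counts with medium and 2168 and 1999.6 with LPS+MSU in Ncoa6-sufficient cells, and 1564 and 1571 and then 2304 and 2202 in Ncoa6-KO cells. These are log2 fold changes of 0.50 ± 0.09 (adjusted p = 0.000421) and 0.52 ± 0.09 (adjusted p = 0.000337) with TMM, against -0.17 and -0.11 with library totals. The hinge protein Uqcrh had 0.44 and 0.45 and the core protein Uqcrc2 0.35 and 0.31, all past the test. Uqcrc1, the other core protein, passed in Ncoa6-KO cells (0.36 ± 0.09, adjusted p = 0.00581) and not in Ncoa6-sufficient cells (0.18 ± 0.09, adjusted p = 0.125). The difference between these responses was 0.19 ± 0.13 (interaction adjusted p = 0.919).

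With TMM 3 of the 11 subunits of complex IV rose in Ncoa6-sufficient and 6 in Ncoa6-KO cells, against 24.7% and 25.2% of all genes. All 11 had values above 0 with TMM in both genotypes and below 0 with library totals. Their median lay 0.33 above the all-gene median in Ncoa6-sufficient and 0.35 above it in Ncoa6-KO cells, the highest of the complexes. Cox5a, a matrix-side subunit that binds a thyroid hormone metabolite, had the highest value of the complex in both genotypes. It measured 2077 and 1804 normalized counts with medium and 3119 and 2761 with LPS+MSU in Ncoa6-sufficient cells and 1822 and 1828 and then 2778 and 2639 in Ncoa6-KO cells, without overlap. The log2 fold changes were 0.60 ± 0.10 (adjusted p = 0.000376) and 0.57 ± 0.10 (adjusted p = 0.000586), against -0.07 and -0.07 with library totals. Cox6c (0.24 and 0.35) and Cox7a2 (0.29 and 0.31) passed in both genotypes. Cox4i1, Cox5b and Cox6a1 passed in Ncoa6-KO cells alone, at 0.28, 0.29 and 0.30, with 0.18, 0.23 and 0.22 in Ncoa6-sufficient cells, and their interaction adjusted p-values were 0.96, 0.99 and 0.977. Cox8a and Ndufa4 passed in neither, at 0.24 and 0.09 in Ncoa6-sufficient cells.

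In ATP synthase 4 of 16 members rose in Ncoa6-sufficient and 6 in Ncoa6-KO cells with TMM, against 24.7% and 25.2% of all genes. Atp5b, the catalytic β subunit, measured 16693 and 15722 normalized counts with medium and 22387 and 20009 with LPS+MSU in Ncoa6-sufficient cells (0.39 ± 0.11, adjusted p = 0.011) and 15761 and 16952 and then 20348 and 22082 in Ncoa6-KO cells (0.38 ± 0.11, adjusted p = 0.0136). The α subunit Atp5a1 had 0.34 and 0.39, and the stalk subunits Atp5f1 and Atp5o, of which the latter confers oligomycin sensitivity, had 0.43 and 0.28 in Ncoa6-sufficient and 0.41 and 0.36 in Ncoa6-KO cells. Atp5d, the δ subunit of the central stalk, and Atp5k, the membrane subunit e, passed in Ncoa6-KO cells (0.26 and 0.34) and not in Ncoa6-sufficient cells (0.07 and 0.28). The central γ subunit Atp5c1 did not pass, at -0.05 ± 0.09 with an interval of -0.24 to 0.14. The c subunit genes had 0.01 for Atp5g1, 0.04 for Atp5g2 and 0.23 for Atp5g3, none past the test, and their summed level was 6498 and 5864 normalized counts with medium and 6958 and 6438 with LPS+MSU. Atpif1, the inhibitor of ATP synthase, falls outside the naming rule and had -0.05 ± 0.10. With library totals every member of complex V was below 0 in both genotypes.

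**Figure D3:**
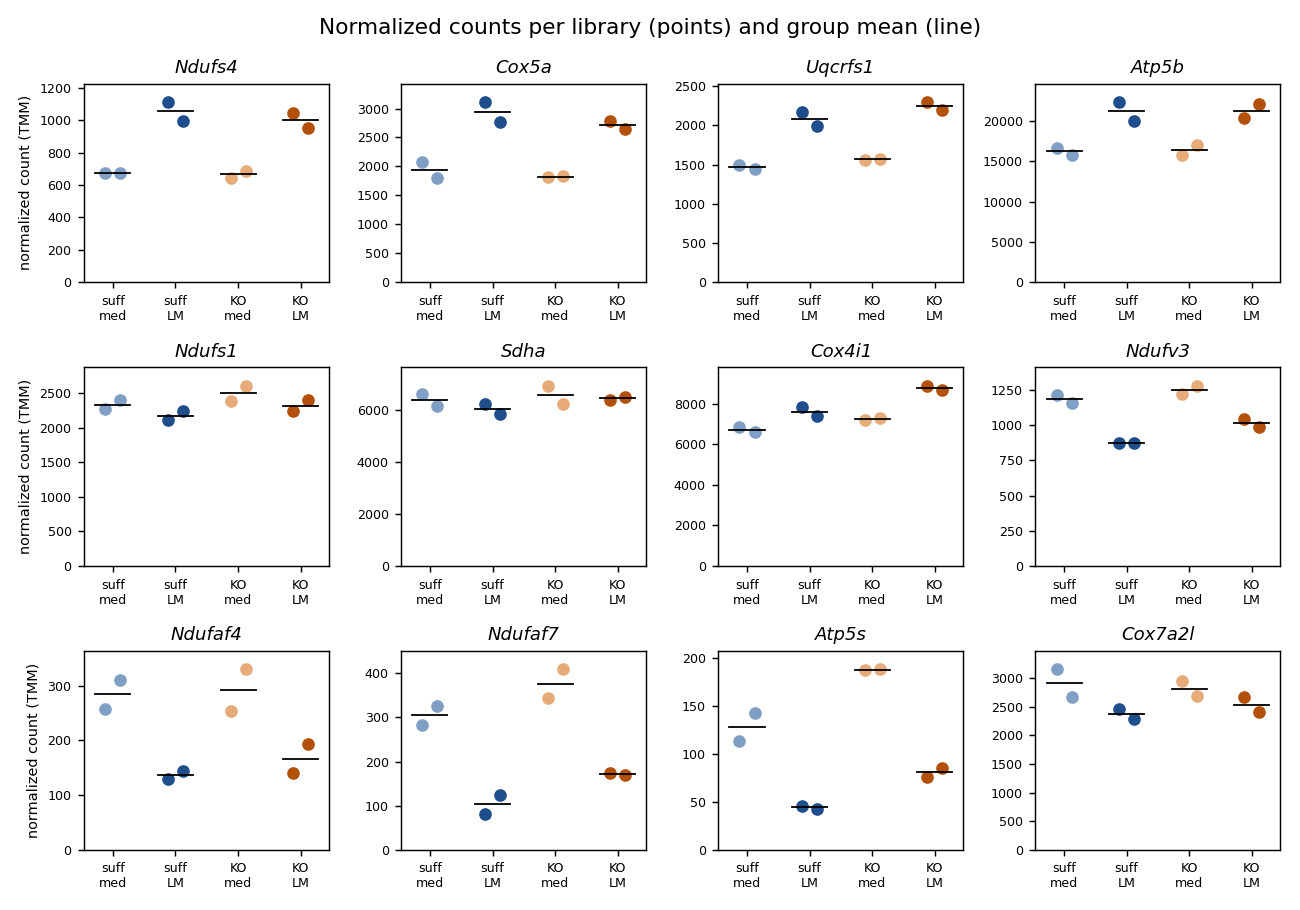
Normalized counts (TMM, vertical axes from 0) of 12 genes in the 8 libraries, with suff for Ncoa6-sufficient, KO for Ncoa6-KO, med for medium and LM for LPS+MSU; points are libraries and lines group means. Ndufs4, Cox5a and Uqcrfs1 are higher and Ndufv3, Ndufaf4, Ndufaf7 and Atp5s lower in every LPS+MSU library than in any medium library of the same genotype on this scale; with library totals the first 3 are not above medium.

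The same 86 genes took a smaller share of the library after stimulation. They held 0.708% and 0.666% of all counts in Ncoa6-sufficient medium libraries and 0.493% and 0.472% with LPS+MSU, and 0.682% and 0.731% and then 0.521% and 0.540% in Ncoa6-KO cells. The share with LPS+MSU was 0.702 of that with medium in Ncoa6-sufficient and 0.750 of it in Ncoa6-KO cells, close to the ratios of 0.684 and 0.758 for ribosomal protein genes. The 13 subunits encoded in mitochondrial DNA held 3.85% to 6.22% of the counts, with ratios of 1.01 and 0.94, and the Ncoa6-sufficient medium libraries alone had 3.85% and 6.22%.

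Ratios taken within a library do not depend on the scaling, and they were examined after the values had been seen. Complex I counts amounted to 0.631 to 0.648 of complex V counts in the 4 medium libraries and to 0.541 to 0.574 in the 4 LPS+MSU libraries. Complex II counts amounted to 0.217 to 0.238 of complex V counts with medium and to 0.183 to 0.192 with LPS+MSU. In both ratios every stimulated library lay below every medium library. The ratio of complex III to complex V (0.218 to 0.223 with medium, 0.216 to 0.227 with LPS+MSU) and that of complex IV to complex V (0.465 to 0.486 and 0.452 to 0.481) overlapped between cultures. Atp5a1 and Atp5b held at most 50.9% of complex V counts with medium and at most 54.7% with LPS+MSU, and the ratios depend on them. Without both genes, an alternative chosen after seeing the data, the ratio of complex I was 1.27 to 1.32 with medium and 1.19 to 1.25 with LPS+MSU, and that of complex II 0.438 to 0.485 and 0.399 to 0.412, smaller differences that still did not overlap. Those of complexes III and IV then no longer overlapped either, and were higher with LPS+MSU (0.440 to 0.453 against 0.473 to 0.489, and 0.930 to 0.988 against 0.992 to 1.03). Within a genotype, with 2 libraries against 2, an exact permutation test cannot go below p = 0.33, so no p is given for these ratios.

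**Figure D4:**
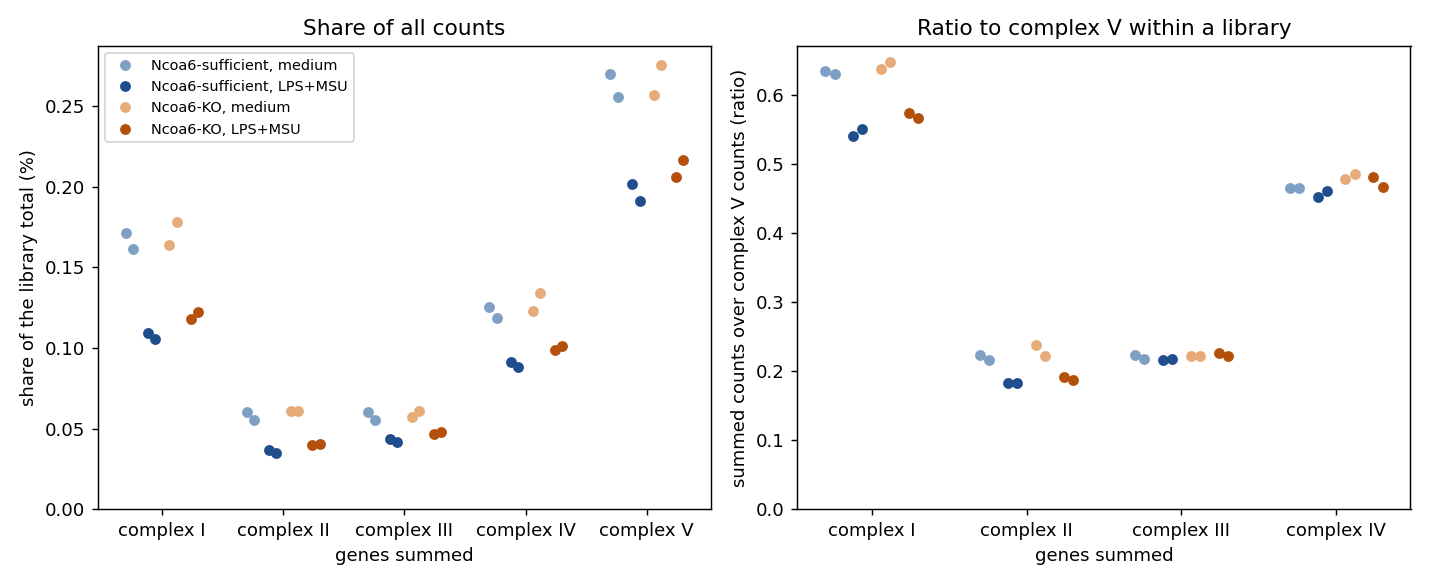
Left, summed counts of the genes of each complex as a percentage of the library total (vertical axis); right, summed counts of complexes I to IV divided by those of complex V in the same library. Each point is a library, coloured by group; the ratios for complexes I and II lie at 0.631 to 0.648 and 0.217 to 0.238 with medium and at 0.541 to 0.574 and 0.183 to 0.192 with LPS+MSU, and those of complexes III and IV overlap, which they do not once Atp5a1 and Atp5b are left out of complex V.

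The order of the genes by stimulation response was similar in both genotypes. Across the 86 genes the log2 fold changes of Ncoa6-sufficient and Ncoa6-KO cells, which share no library, correlated with Pearson's r = 0.967 and Spearman's rho = 0.869, and across the 76 structural subunits with r = 0.895 and rho = 0.832. These are correlations across genes, which are not independent replicates. No correlation over all genes tested is given beside them, so they do not set these genes apart from others. In total 13 members were called higher and 4 lower in both genotypes with TMM, and the share of all genes called in both was not counted. Taken singly, Ncoa6-sufficient cells had 24.7% of all genes higher and 30.5% lower, and Ncoa6-KO cells 25.2% and 27.9%. The log2 fold change also followed the level of the gene to some degree (rho = 0.392 in Ncoa6-sufficient and 0.332 in Ncoa6-KO cells), and it followed merged exon length little (rho = -0.07 and -0.10).

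Promoter sequences of some genes at or near the ends of this order are shown. Nuclear respiratory factor 1 (NRF1), GABP of the ETS family and YY1 are known to act at promoters of respiratory genes. RefSeq promoter windows (GRCm38.p6, 250 bases before to 50 after the start) matched 72 of the 86 members. Each line gives the 120 bases before the start, and capitals mark matches to GCGCATGC (NRF1), CCGGAAG (ETS) or AAGATGGC (YY1) on either strand. Ndufaf7, Atp5s and Ndufaf4 fell most, Cox5a rose among the most, and Ndufa11 serves as an example of a palindromic NRF1 match, in which the matches on both strands overlap. Sequences were drawn only from genes with 1 promoter window and with these 120 bases outside the annotated gene. That left out Ndufs4 with a YY1 match and Uqcrh with an ETS match, which also rose. Cox8a with an ETS match and Ndufa3 with a YY1 match were eligible at the rising end and are not printed.
Ndufaf7 (chr17:78937015-78937134, + strand): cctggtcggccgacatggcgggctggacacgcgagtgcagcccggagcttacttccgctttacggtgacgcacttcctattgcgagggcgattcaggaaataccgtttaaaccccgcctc
Atp5s (chr12:69724825-69724944, + strand): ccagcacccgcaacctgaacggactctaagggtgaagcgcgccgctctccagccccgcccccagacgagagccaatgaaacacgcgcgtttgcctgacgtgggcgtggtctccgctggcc
Ndufaf4 (chr4:24897963-24898082, + strand): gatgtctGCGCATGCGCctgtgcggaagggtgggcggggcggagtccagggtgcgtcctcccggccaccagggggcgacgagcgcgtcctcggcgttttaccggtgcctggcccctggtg
Cox5a (chr9:57521112-57521231, + strand): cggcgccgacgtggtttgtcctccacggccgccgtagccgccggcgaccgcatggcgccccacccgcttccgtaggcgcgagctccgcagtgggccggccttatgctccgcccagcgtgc
Ndufa11 (chr17:56717642-56717761, + strand): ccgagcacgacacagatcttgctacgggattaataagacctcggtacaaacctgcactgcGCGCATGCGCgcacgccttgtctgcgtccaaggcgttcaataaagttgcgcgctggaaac
The NRF1 letters were in 12 of the 72 windows (16.7%, against 3.05% of the promoters of all 27025 genes), the ETS letters in 18 (25.0% against 9.93%) and the YY1 letters in 11 (15.3% against 3.19%). At least 1 of these motifs occurred in 34 windows. The 34 members with a motif had a median log2 fold change of 0.07 in Ncoa6-sufficient and 0.18 in Ncoa6-KO cells, and the 38 without had 0.07 and 0.16. The promoters were matched by name, and 14 members had no window in the table. The 27025 genes were not limited to genes expressed in these cells, whereas every member had to reach a mean of 50 counts. Promoters of expressed genes alone were not used for comparison. A match describes the letters in the window and says nothing of binding.

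No member passed the test for an effect of Ncoa6 loss in either culture. With medium, 0 of the 86 genes passed the edgeR quasi-likelihood test, against 1.88% of all genes tested, and 2 had an unadjusted p below 0.05. The median log2 fold change of Ncoa6-KO over Ncoa6-sufficient was -0.00, with 43 values above and 43 below 0. With LPS+MSU, 0 passed as well, against 3.59% of all genes, 6 had an unadjusted p below 0.05, and the median was 0.10 with 66 values above 0. That median was 0.05 without Ncoa6-sufficient LPS+MSU replicate 2 and 0.06 without Ncoa6-KO LPS+MSU replicate 2. With DESeq2's size factors it was 0.06 with 56 values above 0, and with library totals 0.17 with 79 above 0. The median of all genes tested in the LPS+MSU comparison was 0.00 with TMM, -0.03 with DESeq2's size factors and 0.07 with library totals. The median of the members lay above it under each scaling, an agreement that is no separate support because scaling shifts all genes nearly alike. DESeq2 and limma-voom also called 0 members in both cultures. The genotypes did not overlap for 11 genes higher and 10 lower in Ncoa6-KO cells with medium, where 43.1% of all genes tested were without overlap, and for 45 higher and 6 lower with LPS+MSU, where the share of all genes was 47.4%.

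The limits on an effect were narrow for most of the subunits. The 95% confidence interval of the log2 fold change lay within -0.5 to 0.5 for 82 of 86 members with medium and for 77 with LPS+MSU, and within -1 to 1 for 86 and 84. Its median half-width was 0.22 in both cultures. Ndufs1 had intervals of -0.10 to 0.30 with medium and -0.11 to 0.30 with LPS+MSU, Sdha of -0.17 to 0.26 and -0.12 to 0.32, Uqcrc2 of -0.15 to 0.23 and -0.19 to 0.20, Cox4i1 of -0.10 to 0.31 and 0.00 to 0.41, and Atp5b of -0.23 to 0.26 and -0.24 to 0.24. A p that misses the threshold does not show that the genotypes were alike, and these intervals bound the difference.

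**Figure D5:**
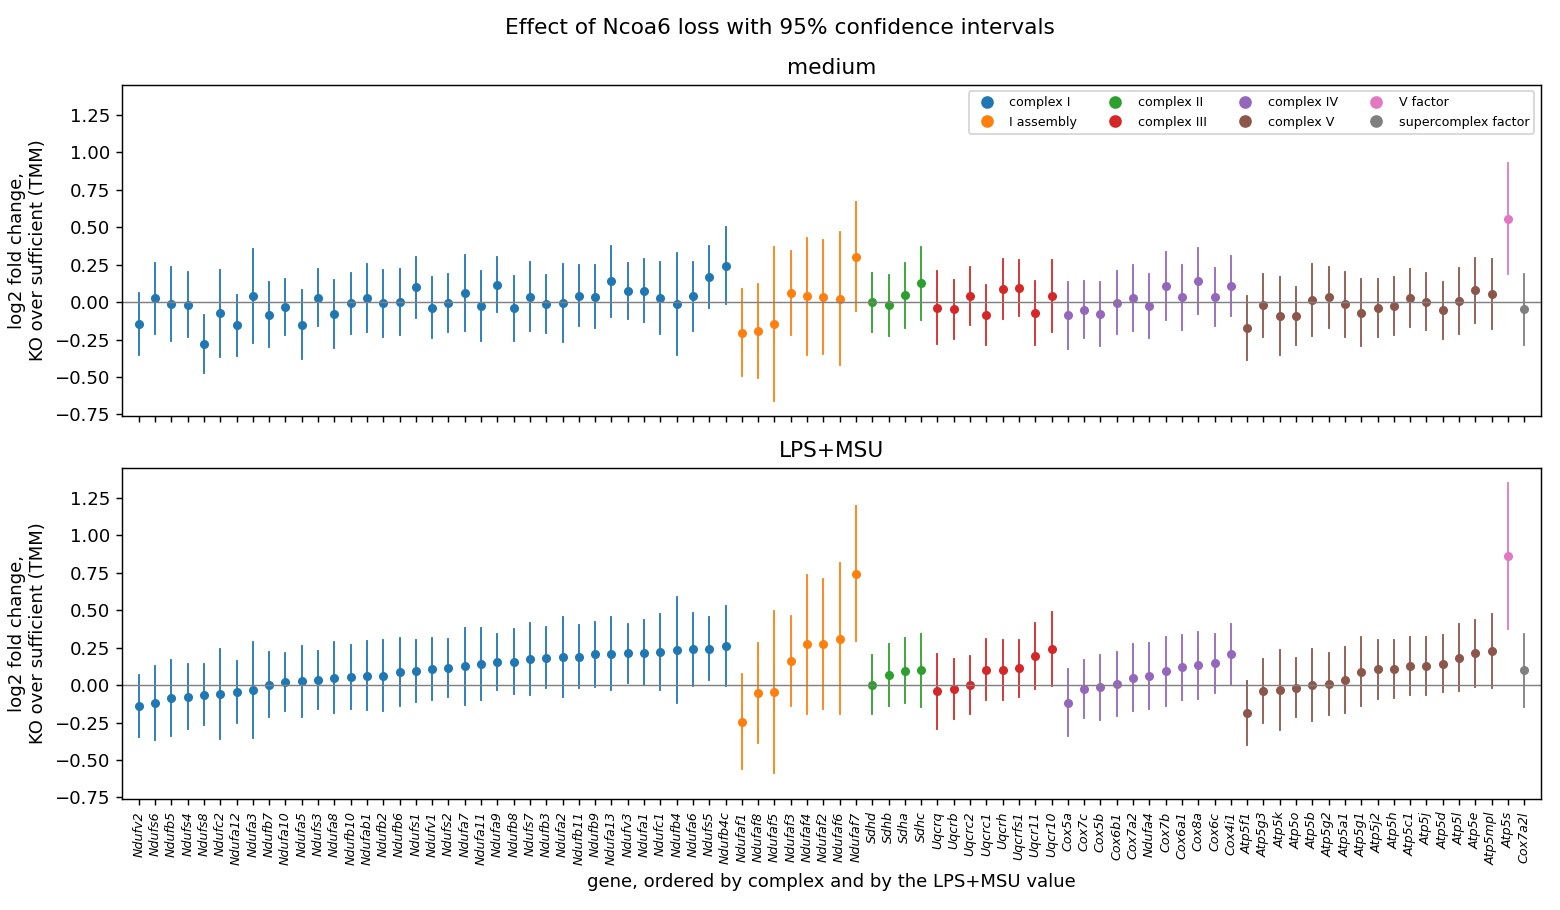
Log2 fold change of Ncoa6-KO over Ncoa6-sufficient cells (vertical axis, TMM) with its 95% confidence interval for each of the 86 genes, with medium (top) and LPS+MSU (bottom), coloured by complex. Of the intervals, 82 with medium and 77 with LPS+MSU lie within -0.5 to 0.5; Atp5s and Ndufaf7 have the highest values, at 0.86 and 0.74 with LPS+MSU.

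Atp5s and Ndufaf7, which fell most with stimulation, were also the genes with the highest values in the knockout comparison with LPS+MSU. The Ncoa6-sufficient LPS+MSU libraries enter that comparison and the stimulation response of Ncoa6-sufficient cells with opposite sign. Low counts in these libraries move both values in the directions seen, so the rankings are not independent. Atp5s had 113 and 142 normalized counts in Ncoa6-sufficient and 187 and 188 in Ncoa6-KO cells with medium, a log2 fold change of 0.56 ± 0.17 (adjusted p = 0.146). With LPS+MSU it had 45.7 and 42.7 in Ncoa6-sufficient and 75.8 and 85.3 in Ncoa6-KO cells, a log2 fold change of 0.86 ± 0.22 (adjusted p = 0.0608). The Ncoa6-KO libraries were above the Ncoa6-sufficient ones in both cultures. For Ndufaf7 the log2 fold changes were 0.30 ± 0.16 with medium (adjusted p = 0.506) and 0.74 ± 0.20 with LPS+MSU (adjusted p = 0.0793), again with no overlap. With LPS+MSU Atp5s passed when library totals were used, and both passed without a filter on low counts or with a replicate block. Neither passed with DESeq2, with limma-voom or in an edgeR fit to only the 4 libraries compared. The smallest adjusted p of any member was 0.0801 with DESeq2, 0.145 with limma-voom and 0.124 in that edgeR fit. The lowest value with medium was that of Ndufs8, a core iron-sulfur subunit, which measured 991 and 909 in Ncoa6-sufficient and 788 and 777 in Ncoa6-KO cells (-0.28 ± 0.09, adjusted p = 0.17).

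The difference between the stimulation responses of both genotypes, taken as the interaction, passed for 0 members and for 0.0% of all genes tested, with 0 members at an unadjusted p below 0.05 and 0 called by DESeq2 or limma-voom. The smallest adjusted p was 0.872, for Uqcr11, a complex III subunit, whose interaction value was 0.27 ± 0.14 and which is named for that p. Values were above 0 for 70 of the 86 members, with a median of 0.09, which became 0.03 without Ncoa6-sufficient medium replicate 1 and -0.00 without Ncoa6-sufficient LPS+MSU replicate 2. With DESeq2's size factors 54 values were above 0 with a median of 0.03, and with library totals 80 with a median of 0.12. The median of all genes with TMM was 0.06, and 81 of 83 ribosomal protein genes were above 0. The interval of the interaction lay within -0.5 to 0.5 for 68 of the 86 members.

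Several genes that work with the subunits but are not covered by the naming rule had larger log2 fold changes than any structural subunit. Cytochrome c itself, Cycs, measured 1712 and 1659 normalized counts with medium and 6984 and 5769 with LPS+MSU in Ncoa6-sufficient cells and 1322 and 1883 and then 5182 and 4929 in Ncoa6-KO cells. Its log2 fold changes were 1.92 ± 0.16 (adjusted p = 1.04e-06) and 1.66 ± 0.15 (adjusted p = 3.61e-06), and it rose with library totals too, by 1.25 and 1.02. Cyc1, which carries the heme of cytochrome c1 in complex III, had 0.36 and 0.31, and -0.31 and -0.32 with library totals. Ndufb1-ps, a complex I gene that the rule leaves out for its symbol, measured 969.7 and 849 normalized counts with medium and 1959 and 1706 with LPS+MSU in Ncoa6-sufficient cells. It rose under each scaling, by 1.01 with TMM and 0.34 with library totals.

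Among 43 further assembly factors, of which 42 were tested, 8 rose and 15 fell in Ncoa6-sufficient and 9 rose and 18 fell in Ncoa6-KO cells with TMM, against 24.7% and 30.5%, and 25.2% and 27.9%, of all genes. Those called higher under all 3 scalings were the same 4 in both genotypes, Sco1, Cox18, Coa5 and Cox17, factors of complex IV assembly, and 13 and 17 were called lower under all 3. Of all genes 14.2% and 14.4% were called higher and 26.8% and 25.9% lower under all 3. Sco1 and Sco2, which both deliver copper to the CuA site of complex IV, moved in opposite directions. Sco1 measured 256 and 217 normalized counts with medium and 1495 and 1202 with LPS+MSU in Ncoa6-sufficient cells, a log2 fold change of 2.51 ± 0.15 (adjusted p = 9.32e-08), and had 2.44 ± 0.15 in Ncoa6-KO cells. Sco2 measured 165 and 140.2 and then 30.5 and 22, a change of -2.54 ± 0.29 (adjusted p = 2.05e-05), with -2.19 ± 0.28 in Ncoa6-KO cells. With library totals Sco1 still rose, by 1.84, and Sco2 fell by 3.21. Cox18, which inserts mtDNA-encoded complex IV subunits into the membrane, had 1.75, and Coa5 had 1.74, whereas Tmem186 and Sdhaf1, factors for complexes I and II, had -1.63 and -1.59.

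Of 16 genes for the electron transfer flavoprotein and for ubiquinone synthesis, 2 rose and 5 fell in each genotype with TMM, against 24.7% and 30.5% of all genes in Ncoa6-sufficient and 25.2% and 27.9% in Ncoa6-KO cells. Pdss1, which makes the ubiquinone side chain, had 1.92 and 1.47, and Coq10b, a lipid-binding partner of ubiquinone, had 1.22 and 1.44, while its paralog Coq10a had -1.81 and -1.53. Pdss1 and Coq10b rose, and Coq10a fell, with library totals as well. Of the 13 subunits encoded in mitochondrial DNA, 6 rose in Ncoa6-sufficient and 4 in Ncoa6-KO cells with TMM, against 24.7% and 25.2% of all genes. Their medians were 0.64 and 0.46, and with library totals none passed in either direction. mt-Co1, the catalytic subunit of complex IV, measured 391443 and 617043 normalized counts with medium and 703449 and 990153 with LPS+MSU in Ncoa6-sufficient cells, groups that did not overlap although libraries of the same culture differed widely.

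Of 18 tested among 21 regulators of respiratory genes, 5 rose and 10 fell in each genotype with TMM, where 24.7% and 30.5% of all genes rose and fell in Ncoa6-sufficient and 25.2% and 27.9% in Ncoa6-KO cells. Myc, Ppargc1b and Esrra rose under all 3 scalings in both genotypes, with 2.26, 2.11 and 0.92 in Ncoa6-sufficient cells on the TMM scale. Ppargc1b and Esrra are a coactivator and a nuclear receptor known to drive mitochondrial genes. Pparg (-2.28 and -2.50), Ppard (-1.75 and -1.22) and the mitochondrial DNA helicase Twnk (-1.63 in Ncoa6-KO cells) were among those that fell in both genotypes. Nrf1 and Gabpa, the factors whose motifs were searched, had 0.04 ± 0.13 and 0.08 ± 0.08, neither past the test with TMM, and Yy1 had -0.90 ± 0.09 (adjusted p = 8e-06). Against the same 24.7% and 30.5%, 3 of 14 TCA cycle enzymes rose and 2 fell in Ncoa6-sufficient cells, and 6 of 16 glycolysis enzymes rose and 2 fell, with Hk3 (1.57), Pfkp (1.38) and Hk2 (1.35) highest. Across these lists, from the mitochondrially encoded subunits to glycolysis, the knockout comparison gave 1 call, Aldoc with LPS+MSU (0.56 ± 0.12, adjusted p = 0.0367), and none with medium.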

How the data were processed

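RNA-seq was carried out on 8 libraries, 2 in each of 4 groups. The authors aligned paired-end reads to GRCm38 with STAR 2.7.3a and deposited expected counts per gene from RSEM 1.3.3, in which reads shared by similar genes are divided between them. Expected counts were rounded, 17625 genes with a sum of at least 10 were kept, and groups were compared with edgeR 4.0.16 (quasi-likelihood test, TMM factors, R 4.3.3) in a single fit with 4 residual degrees of freedom. P-values were adjusted by Benjamini-Hochberg over all genes tested, and genes were called at 0.05. DESeq2 1.42.0, limma 3.58.1 (voom), library totals, other filters, a replicate block and omission of each library were alternatives. Normalized counts were scaled to the mean effective library size, 29332189. Totals ran from 25281955 to 33673552 counts. Scripts were tested on simulated data. Positions and lengths are from GENCODE vM21 and promoters from RefSeq.

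The members and gene lists were chosen with earlier results of these data known. Genes named were the 5 highest and 5 lowest members of a comparison, a set of standard subunits, members called in a knockout comparison, and at most 3 genes per direction in other lists. Cox17, Nrf1, Gabpa, Yy1, Uqcr11, Ndufb3, mt-Co1 and the subunits named for passing in Ncoa6-KO cells alone were chosen after their values were seen. Motifs were searched as letters on both strands. Values of 1 standard subunit are not reported here.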

Additional observations from a re-analysis of the deposited data

Results flagged for a closer look

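For Ndufb3 and Uqcrc1 the Ncoa6-KO libraries lay on one side of both Ncoa6-sufficient libraries with medium and on the other side with LPS+MSU. Ndufb3, an accessory subunit of complex I, had 684 and 687 normalized counts in Ncoa6-sufficient and 677 and 679.7 in Ncoa6-KO cells with medium, and 625 and 621 in Ncoa6-sufficient and 711 and 704 in Ncoa6-KO cells with LPS+MSU. The interaction was 0.20 ± 0.13 on the log2 scale (edgeR adjusted p = 0.905). Uqcrc1, a core protein of complex III, had 3707 and 3338 in Ncoa6-sufficient and 3324 and 3316 in Ncoa6-KO cells with medium. With LPS+MSU it had 4077 and 3890.5 in Ncoa6-sufficient and 4172 and 4381 in Ncoa6-KO cells, with an interaction of 0.19 ± 0.13 (edgeR adjusted p = 0.919). Neither difference passed the test, and the genotypes of 43.1% of all genes tested did not overlap with medium and of 47.4% with LPS+MSU.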

How the results depend on the processing

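Of the values of single genes recomputed under all alternatives, 2847 kept their direction and their side of the threshold, 61 passed it anew, 49 lost it and 49 changed sign, all 49 of them with library totals. Library totals called 0 members higher and 82 lower in Ncoa6-sufficient and 0 higher and 80 lower in Ncoa6-KO cells, moved the stimulation medians to -0.60 and -0.46, and gave 1 member higher and a median of 0.17 for the knockout with LPS+MSU. DESeq2 called 24 members higher in Ncoa6-sufficient cells with its own size factors, and edgeR called 31 with those factors, with medians of 0.18 and 0.23 in the 2 genotypes in each case. The filterByExpr filter gave 21 and a fit to only the 4 libraries compared gave 24. With structural subunits only, 1 member was lower in each genotype. Leaving out 1 library at a time gave 6 to 18 higher members and medians of 0.0054 to 0.18 in Ncoa6-sufficient cells, 10 to 22 and 0.11 to 0.20 in Ncoa6-KO cells, 0 to 1 higher with LPS+MSU in the knockout comparison, and interaction medians of -0.0015 to 0.13. A lone library left in a group was taken to vary like the others. With no filter 2 members were higher in the knockout with LPS+MSU. Same-numbered libraries correlated at 0.0523 to 0.369 over the 6 pairs of groups, 1 of them under 0.1, and neither the labels nor the methods say that a number pairs them. With a replicate block, 18 members were higher and 7 lower in Ncoa6-sufficient cells, 27 and 4 in Ncoa6-KO cells, and 2 were higher in the knockout with LPS+MSU. Without mitochondrial genes in the totals the members held 0.724% and 0.508% of counts in Ncoa6-sufficient medium and LPS+MSU libraries and 0.747% and 0.558% in Ncoa6-KO ones. The length alternative, chosen after seeing the data, moved the ranges of Atp5g1, Atp5g2 and Atp5g3 from 248 to 319, 1291 to 1471 and 1095 to 1431 to 2045 to 2629, 4904 to 5589 and 3344 to 4370 normalized counts per kb, and the order of Atp5g2 and Atp5g3, which overlapped, became separate. The cause of these changes was not tested. The log2 fold changes that changed sign with library totals were, in Ncoa6-sufficient cells, Atp5a1 -0.33, Atp5b -0.29, Atp5f1 -0.25, Atp5g1 -0.66, Atp5g2 -0.63, Atp5g3 -0.44, Cox4i1 -0.50, Cox5a -0.073, Cox5b -0.44, Cox6a1 -0.46, Cox6c -0.43, Cox7a2 -0.38, Cox8a -0.43, Ndufa4 -0.58, Ndufa9 -0.56, Ndufs4 -0.026, Sdhc -0.54, Sdhd -0.63, Uqcrc1 -0.49, Uqcrc2 -0.32, Uqcrfs1 -0.17, Uqcrh -0.24, and in Ncoa6-KO cells Atp5a1 -0.24, Atp5b -0.26, Atp5c1 -0.59, Atp5f1 -0.23, Atp5g1 -0.46, Atp5g2 -0.62, Atp5g3 -0.42, Atpif1 -0.63, Cox4i1 -0.36, Cox5a -0.065, Cox5b -0.34, Cox6a1 -0.33, Cox6c -0.29, Cox7a2 -0.32, Cox8a -0.40, Ndufa4 -0.46, Ndufa9 -0.48, Ndufb8 -0.61, Ndufs4 -0.049, Ndufv1 -0.51, Sdhb -0.61, Sdhc -0.53, Sdhd -0.59, Uqcrc1 -0.27, Uqcrc2 -0.32, Uqcrfs1 -0.11, Uqcrh -0.18. With 2 libraries a group, the widest 95% interval of a member in the knockout comparison with LPS+MSU reached 0.54 to either side, against a median of 0.22.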
